A study of Arabidopsis thaliana with 12 samples.

Results

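The genes described here are 10 Arabidopsis thaliana genes of flavonoid and anthocyanin synthesis, listed by name as enzymes of the pathway, with earlier results of these data known. In pathway order they are CHS (AT5G13930), CHI (AT3G55120), F3H (AT3G51240), F3'H (AT5G07990), FLS1 (AT5G08640), DFR (AT5G42800), LDOX (AT4G22880), UF3GT (AT5G54060), UGT75C1 (AT4G14090) and UGT78D2 (AT5G17050). They are 10 of 27655 genes with values, and all 10 passed the filter for testing, a mean over the 12 libraries of 1 TPM or more (a transcript abundance corrected for gene length and library total), as 19528 genes did.

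The series measured transcripts of whole Col-0 wild-type seedlings after 6 h at 22 °C under continuous light in liquid medium with 1 of 4 additions. These were 10 µM 3'-propyl ABA, 10 µM 3'-butyl ABA, 10 µM abscisic acid (ABA) or the solvent DMSO, with 3 libraries each and 12 in all. ABA is a plant hormone that acts in drought and in seeds, and both derivatives carry an alkyl chain at the 3' position, the butyl chain being the longer. All groups had been sown in 96-well plates on agar medium with sucrose, several seedlings to a well, and sucrose was also in the treatment medium. The seedlings were 8 days old by the labels of the samples, whereas the text of the series says 7. Nothing in the labels says that the 3 libraries of a treatment came from separate cultures, so p-values measure the spread between these libraries, which may be technical.

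Flavonoids are built from phenylalanine. The early enzymes CHS, CHI and F3H join coumaroyl-CoA with malonyl-CoA, close the rings and hydroxylate the product to a dihydroflavonol, and F3'H adds a hydroxyl group to the B ring. At the dihydroflavonol the pathway divides: FLS1 makes flavonols, whereas DFR and LDOX lead to anthocyanidins, which UGT78D2, UF3GT and UGT75C1 decorate with sugars to make the stable purple anthocyanins. In Arabidopsis seedlings the early and flavonol genes are known targets of the MYB factors MYB11, MYB12 and MYB111, and the late genes of complexes of PAP-type MYB factors with bHLH factors and TTG1.

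In TAIR10.1, CHS (annotated as TT4) lies on chromosome 5, 4488476 to 4490264, CHI (TT5) on chromosome 3, 20430059 to 20431597, and F3H on chromosome 3, 19025192 to 19026872. F3'H (TT7) lies on chromosome 5, 2560328 to 2563137, FLS1 on chromosome 5, 2803833 to 2805606, and DFR on chromosome 5, 17164093 to 17166032. LDOX lies on chromosome 4, 12004726 to 12006209, UF3GT on chromosome 5, 21936746 to 21938396, UGT75C1 on chromosome 4, 8122188 to 8123835, and UGT78D2 on chromosome 5, 5607788 to 5609589. All 10 are protein-coding. The noncoding gene AT3G51238, not analysed here, lies on the opposite strand over 1588 bases of F3H, and AT4G14100 (230 bases) and the noncoding AT4G06175 (217 bases) lie on the opposite strand over the end of UGT75C1. AT5G13940 shares 2 bases with CHS. The libraries were made strand-specific, but the strand setting of the counting is not given in the sources used here, so reads of F3H and UGT75C1 cannot be told from those of these partners.

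The 250 bases before the annotated start of each gene were searched on both strands for letters that factors of this pathway or of the ABA response are known to bind. The G-box is CACGTG. The core of ABA-responsive elements is ACGTG, which the G-box contains on both strands. The general bHLH letters are CANNTG, which include the G-box. The MYB-type letters were ACCTACC as well as the related ACCAACC and the related ACCTAAC. The 4 promoters with a G-box are printed because they hold members of both the early and the late group, and that of LDOX because it holds none of the capitalised letters although the values of LDOX and UF3GT followed each other closely across libraries. The sequences are from the RefSeq TAIR10.1 genome, given 5′ to 3′ on the strand of the gene, and capitals mark ACGTG on either strand, including every CACGTG, and the MYB-type letters.
CHS (chr5:4488226-4488475, plus strand): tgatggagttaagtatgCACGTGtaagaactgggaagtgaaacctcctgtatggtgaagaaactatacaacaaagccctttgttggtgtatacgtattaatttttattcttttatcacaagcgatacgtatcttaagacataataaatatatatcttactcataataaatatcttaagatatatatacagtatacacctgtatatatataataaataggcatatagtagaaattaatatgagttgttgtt
F3H (chr3:19024942-19025191, plus strand): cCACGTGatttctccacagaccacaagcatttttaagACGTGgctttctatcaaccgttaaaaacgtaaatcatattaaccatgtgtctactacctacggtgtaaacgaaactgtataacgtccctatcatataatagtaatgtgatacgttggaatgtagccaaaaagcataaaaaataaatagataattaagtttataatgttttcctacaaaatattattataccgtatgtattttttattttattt
DFR (chr5:17166033-17166282, minus strand): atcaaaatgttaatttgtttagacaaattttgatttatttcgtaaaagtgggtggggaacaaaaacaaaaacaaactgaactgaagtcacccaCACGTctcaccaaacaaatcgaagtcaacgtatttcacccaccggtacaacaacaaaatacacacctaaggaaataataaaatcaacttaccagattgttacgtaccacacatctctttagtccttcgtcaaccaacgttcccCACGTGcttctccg
UF3GT (chr5:21938397-21938646, minus strand): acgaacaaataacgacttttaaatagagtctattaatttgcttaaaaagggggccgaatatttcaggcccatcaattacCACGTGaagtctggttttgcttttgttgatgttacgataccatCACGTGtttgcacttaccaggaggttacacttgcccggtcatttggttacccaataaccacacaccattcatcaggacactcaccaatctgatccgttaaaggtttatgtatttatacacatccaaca
LDOX (chr4:12006210-12006459, minus strand): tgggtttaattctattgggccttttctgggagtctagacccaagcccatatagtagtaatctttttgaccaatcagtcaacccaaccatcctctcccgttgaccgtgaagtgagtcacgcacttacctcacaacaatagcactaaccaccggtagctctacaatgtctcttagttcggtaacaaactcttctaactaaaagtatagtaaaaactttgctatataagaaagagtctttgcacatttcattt

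CACGTG was found before 4 of the 10 genes, CHS, F3H, DFR and UF3GT, against 6.49% of the 27437 protein-coding promoters of the same length and 7.73% of the 19397 whose gene was tested. It lay at bases -233 to -228 of CHS, -249 to -244 of F3H and -14 to -9 of DFR, counted back from -1 as the last base before the annotated start. UF3GT held it at -171 to -166 and again at -128 to -123. ACGTG was found in the same 4 promoters (22.9% of all), with further copies at -213 to -209 of F3H and -157 to -153 of DFR. CANNTG was found in 6 of 10 (55.3% of all), ACCAACC in UGT75C1 alone (2.69% of all), and ACCTACC and ACCTAAC in none of the 10 (1.16% and 2.46% of all). The F3H window lies within AT3G51238, and the UGT75C1 window overlaps another gene, AT4G14096. A match says only that these letters are present.

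The libraries were alike in depth and differed in the root and shoot transcripts they held. The steps of the TPM values put 1 read in a gene of 1 kb at 0.130 to 0.169 TPM and the libraries at an estimated 9430000 to 12180000 reads in genes. An ABA response was present in every treated library: the summed level of RD29B, RAB18 and HAI1 was 4195 to 5465 TPM with 3'-propyl ABA, 952 to 1102 TPM with 3'-butyl ABA, 1231 to 1482 TPM with ABA and 16.9 to 18.0 TPM in DMSO. For the 13 root markers (endodermis and root hair genes) the sum was 98.8, 115 and 97.0 TPM in replicates 1 to 3 of 3'-propyl ABA, 258, 168 and 252 TPM with 3'-butyl ABA, 181, 96.5 and 64.1 TPM with ABA, and 275, 113 and 102 TPM in DMSO. DMSO replicate 1 and ABA replicate 1 were thus above the other libraries of their treatments. The 7 shoot markers (photosynthesis genes) summed to 8961 to 12951 TPM with 3'-propyl ABA, 19945 to 21031 TPM with 3'-butyl ABA, 16716 to 19943 TPM with ABA and 13391 to 15332 TPM in DMSO. No marker of either list was at 0 in all 3 libraries of a treatment, as whole seedlings would give. In whole seedlings, fewer cells of a type and less RNA per cell cannot be told apart.

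In the analysis reported, every compound raised most of the 10 genes within 6 h, and F3H most clearly. Against DMSO, 3'-propyl ABA raised 9 genes and lowered F3'H, 3'-butyl ABA raised 6, and ABA raised 7 (limma, Benjamini-Hochberg adjusted over all tested genes, threshold 0.05). Some other settings gave fewer. 3'-propyl ABA raised 7 with no filter. 3'-butyl ABA raised 4 with quantile normalization or with no filter, and ABA raised 5 with no filter and 4 without ABA replicate 2. In the analysis reported, the same test called 27.5% of all genes higher and 38.5% lower with 3'-propyl ABA (66.0% in all), 25.1% higher and 25.6% lower with 3'-butyl ABA (50.6% in all), and 22.0% higher and 24.7% lower with ABA (46.7% in all). Read by libraries that do not overlap with DMSO, 9 genes were higher (28.6% of all genes) and 1 lower (40.4%) with 3'-propyl ABA, 7 were higher with 3'-butyl ABA (29.4%), and 7 were higher with ABA (23.9%). The median log2 fold change of the 10 genes was 1.34 with 3'-propyl ABA, 0.81 with 3'-butyl ABA and 1.06 with ABA, beside medians over all genes tested of -0.12 with 3'-propyl ABA, 0.00 with 3'-butyl ABA and -0.03 with ABA. All 3 comparisons share the DMSO libraries. Summed over the 10 genes, the level was 448 ± 24.8 TPM with 3'-propyl ABA, 342 ± 67.3 TPM with 3'-butyl ABA, 339 ± 68.6 TPM with ABA and 198 ± 12.2 TPM in DMSO (SD, n = 3 each).

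**Figure D1:**
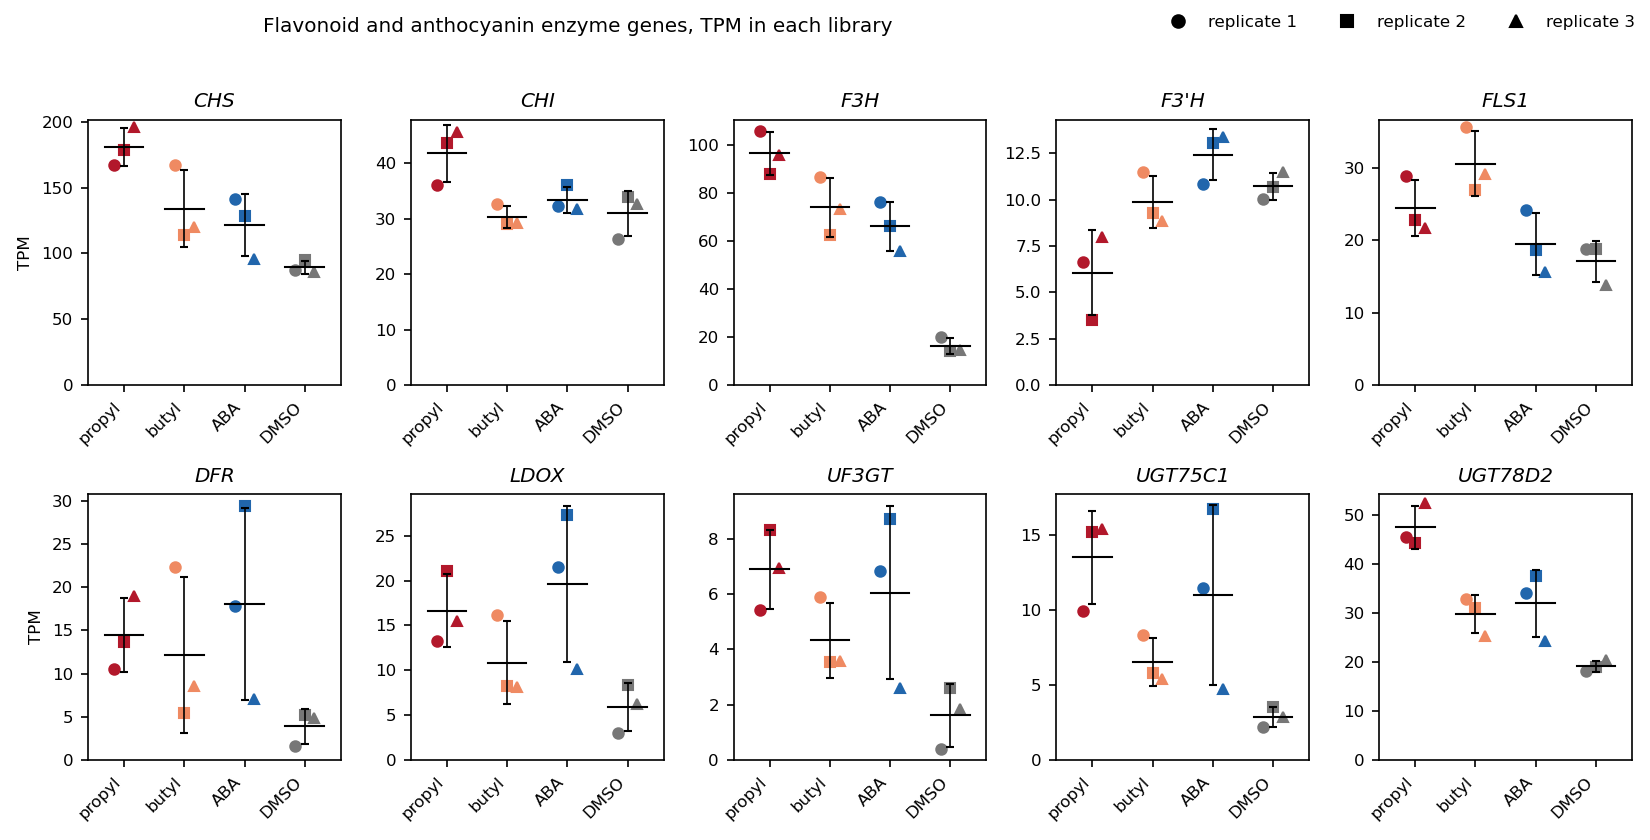
TPM of each of the 10 genes (vertical axis, from 0) in the 12 libraries, by treatment from left to right 3'-propyl ABA, 3'-butyl ABA, ABA and DMSO; symbols are replicates 1 to 3, the long bar is the mean and the whiskers the SD of 3 libraries. F3H lies above 50 TPM in all 9 treated libraries and at 14.0 to 20.0 TPM in DMSO, whereas the libraries of 1 treatment lie far apart for DFR.

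Among the early genes, the first enzyme, CHS (chalcone synthase), had the highest level of the 10 in every treatment. It stood at 167, 178 and 196 TPM in replicates 1 to 3 of 3'-propyl ABA, at 167, 114 and 120.4 TPM with 3'-butyl ABA, at 141, 128 and 95.4 TPM with ABA, and at 87.1, 95.3 and 86.1 TPM in DMSO. Every treated library was above every DMSO library, though ABA replicate 3 only just. The log2 fold change of CHS against DMSO was 1.00 ± 0.16 (SE) with 3'-propyl ABA (adjusted p = 0.00013), 0.56 ± 0.16 with 3'-butyl ABA (adjusted p = 0.011) and 0.42 ± 0.16 with ABA (adjusted p = 0.045). The call with ABA was close to the threshold. It was lost in 9 of 12 fits without 1 library: DMSO replicate 1, 2 or 3, ABA replicate 1 or 2, 3'-propyl ABA replicate 1, 2 or 3, or 3'-butyl ABA replicate 3 (adjusted p 0.054 to 0.16, log2 fold change 0.30 to 0.47).

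CHI (chalcone isomerase) moved less. Its levels were 36.0, 43.6 and 45.7 TPM with 3'-propyl ABA, 32.6, 29.0 and 29.3 TPM with 3'-butyl ABA, 32.3, 36.1 and 31.7 TPM with ABA, and 26.4, 33.9 and 32.6 TPM in DMSO. The 3'-propyl ABA libraries alone were all above DMSO (0.42 ± 0.11, adjusted p = 0.0047). No change was called with 3'-butyl ABA (-0.02, 95% interval -0.26 to 0.22) or with ABA (0.11, -0.13 to 0.35).

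F3H (flavanone 3-hydroxylase, a dioxygenase that makes dihydroflavonols) had the largest change of the 10 genes in log2(TPM + 1) with each compound. It stood at 106, 87.9 and 95.6 TPM with 3'-propyl ABA, 86.6, 62.2 and 73.1 TPM with 3'-butyl ABA, 76.0, 66.3 and 55.6 TPM with ABA, and 20.0, 14.0 and 14.5 TPM in DMSO. The lowest treated library was still far above the highest DMSO library. The log2 fold changes were 2.52 ± 0.16 with 3'-propyl ABA (adjusted p = 4.8e-08), 2.13 ± 0.16 with 3'-butyl ABA (adjusted p = 7.4e-07) and 1.97 ± 0.16 with ABA (adjusted p = 1.4e-06). As ratios of mean TPM these were 5.97-fold with 3'-propyl ABA, 4.58-fold with 3'-butyl ABA and 4.08-fold with ABA. With ABA the rank depended on the scale: DFR had a larger ratio of means (4.64-fold), and with a pseudocount of 0.1 its log2 fold change was 2.14, against 2.03 for F3H. By mean level F3H had rank 5 of the 10 in DMSO, where its libraries overlapped those of FLS1, the gene above it. It had rank 2 with each compound, where its libraries overlapped neither those of CHS above it nor those of the gene below.

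F3'H (flavonoid 3'-hydroxylase, which sets the cyanidin and quercetin pattern) was the single member that fell in any comparison with DMSO. Its levels were 6.66, 3.52 and 7.99 TPM with 3'-propyl ABA, 11.5, 9.30 and 8.83 TPM with 3'-butyl ABA, 10.9, 13.0 and 13.4 TPM with ABA, and 10.0, 10.7 and 11.5 TPM in DMSO. All 3 libraries of 3'-propyl ABA were below every other library. F3'H fell by 0.79 ± 0.21 on the log2 scale with 3'-propyl ABA against DMSO (adjusted p = 0.0049). No change was called with 3'-butyl ABA (-0.11, interval -0.57 to 0.34) or ABA (0.19, -0.26 to 0.65). By mean level F3'H had rank 10 of the 10 genes with 3'-propyl ABA, where its libraries overlapped those of UF3GT just above, and rank 6 in DMSO.

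FLS1 (flavonol synthase, the entry to the flavonol branch) had its highest mean with 3'-butyl ABA. It stood at 28.8, 22.8 and 21.7 TPM with 3'-propyl ABA, 35.6, 27.0 and 29.2 TPM with 3'-butyl ABA, 24.1, 18.7 and 15.6 TPM with ABA, and 18.7, 18.8 and 13.8 TPM in DMSO. The libraries of both derivatives lay above DMSO, and those of ABA overlapped it. FLS1 rose with 3'-butyl ABA (0.81 ± 0.17, adjusted p = 0.0021) and with 3'-propyl ABA (0.49 ± 0.17, adjusted p = 0.024), and no change was called with ABA (0.17, interval -0.21 to 0.55). The call with 3'-propyl ABA was lost without DMSO replicate 3 (0.35) or 3'-propyl ABA replicate 1 (0.37), with adjusted p of 0.10 and 0.098. With no filter that call was also lost (adjusted p = 0.066).

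The late genes lead to anthocyanins, and in ABA and DMSO their libraries spread more than those of the early genes, except UGT75C1 in DMSO. There the SD of log2(TPM + 1) was 0.26 for UGT75C1 and 0.27 for F3H. DFR (dihydroflavonol reductase, the first late enzyme) stood at 10.6, 13.7 and 19.0 TPM with 3'-propyl ABA, 22.4, 5.40 and 8.53 TPM with 3'-butyl ABA, 17.8, 29.4 and 7.02 TPM with ABA, and 1.55, 5.23 and 4.89 TPM in DMSO. Every treated library was above every DMSO library, 3'-butyl ABA replicate 2 by little. DFR rose with 3'-propyl ABA (1.73 ± 0.59, adjusted p = 0.024) and with ABA (1.87 ± 0.59, adjusted p = 0.024). With 3'-butyl ABA the difference was 1.31 ± 0.59 and was not called (interval 0.00 to 2.62, adjusted p = 0.088). Without DMSO replicate 1, the lowest library, the difference was 1.31 with 3'-propyl ABA (adjusted p = 0.090) and 1.45 with ABA (adjusted p = 0.083), and neither was called. The call with 3'-propyl ABA was also lost without 3'-propyl ABA replicate 3 (1.52, adjusted p = 0.077), and that with ABA without ABA replicate 1 (1.78, adjusted p = 0.065) or 2 (1.43, adjusted p = 0.095). DFR with 3'-butyl ABA was called without 3'-butyl ABA replicate 2 (1.72, adjusted p = 0.048). With no filter, DFR was called neither with 3'-propyl ABA (adjusted p = 0.053) nor with ABA (adjusted p = 0.055).

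LDOX (leucoanthocyanidin dioxygenase, which makes anthocyanidins) stood at 13.3, 21.1 and 15.5 TPM with 3'-propyl ABA, 16.2, 8.24 and 8.07 TPM with 3'-butyl ABA, 21.5, 27.3 and 10.1 TPM with ABA, and 3.03, 8.38 and 6.18 TPM in DMSO. The 3'-propyl ABA and ABA libraries were all above DMSO, and 2 of the 3'-butyl ABA libraries were below the highest DMSO library. LDOX rose with 3'-propyl ABA (1.42 ± 0.41, adjusted p = 0.011) and ABA (1.57 ± 0.41, adjusted p = 0.010). No change was called with 3'-butyl ABA (0.80, interval -0.11 to 1.72, adjusted p = 0.13).

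UF3GT, which adds xylose to the glucose of anthocyanins, had the lowest mean level of the 10 in every treatment except 3'-propyl ABA. It stood at 5.42, 8.32 and 6.93 TPM with 3'-propyl ABA, 5.89, 3.54 and 3.56 TPM with 3'-butyl ABA, 6.82, 8.71 and 2.61 TPM with ABA, and 0.380, 2.60 and 1.84 TPM in DMSO. DMSO replicate 1 rests on an estimated 4 reads, and ABA replicate 3 lay only just above DMSO replicate 2. UF3GT rose with 3'-propyl ABA (1.69 ± 0.40, adjusted p = 0.0031), 3'-butyl ABA (1.11 ± 0.40, adjusted p = 0.039) and ABA (1.43 ± 0.40, adjusted p = 0.013). The call with ABA was lost without ABA replicate 2 (1.14, adjusted p = 0.058). The call with 3'-butyl ABA was lost without DMSO replicate 1 or 3, 3'-propyl ABA replicate 3, or 3'-butyl ABA replicate 1, 2 or 3 (adjusted p 0.053 to 0.13), and its log2 fold change was 0.71 without DMSO replicate 1.

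UGT75C1, the anthocyanin 5-O-glucosyltransferase, stood at 9.94, 15.2 and 15.4 TPM with 3'-propyl ABA, 8.34, 5.82 and 5.40 TPM with 3'-butyl ABA, 11.5, 16.7 and 4.74 TPM with ABA, and 2.19, 3.56 and 2.85 TPM in DMSO. Every treated library was above every DMSO library. The gene rose with 3'-propyl ABA (1.90 ± 0.35, adjusted p = 0.00054), 3'-butyl ABA (0.95 ± 0.35, adjusted p = 0.041) and ABA (1.50 ± 0.35, adjusted p = 0.0046). The call with 3'-butyl ABA was lost in 9 of 12 fits without 1 library, with DMSO replicate 1, 2 or 3, ABA replicate 1, 3'-propyl ABA replicate 2 or 3, or 3'-butyl ABA replicate 1, 2 or 3 left out (adjusted p 0.050 to 0.14, log2 fold change 0.79 to 1.08).

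UGT78D2, the 3-O-glucosyltransferase that serves both flavonols and anthocyanidins, rose with each compound. It stood at 45.6, 44.4 and 52.5 TPM with 3'-propyl ABA, 32.9, 31.0 and 25.4 TPM with 3'-butyl ABA, 34.1, 37.5 and 24.2 TPM with ABA, and 18.1, 18.9 and 20.3 TPM in DMSO. The 3'-propyl ABA libraries were above all others and the DMSO libraries below all others. The log2 fold changes against DMSO were 1.27 ± 0.14 with 3'-propyl ABA (adjusted p = 7.3e-06), 0.61 ± 0.14 with 3'-butyl ABA (adjusted p = 0.0040) and 0.69 ± 0.14 with ABA (adjusted p = 0.0019).

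**Figure D2:**
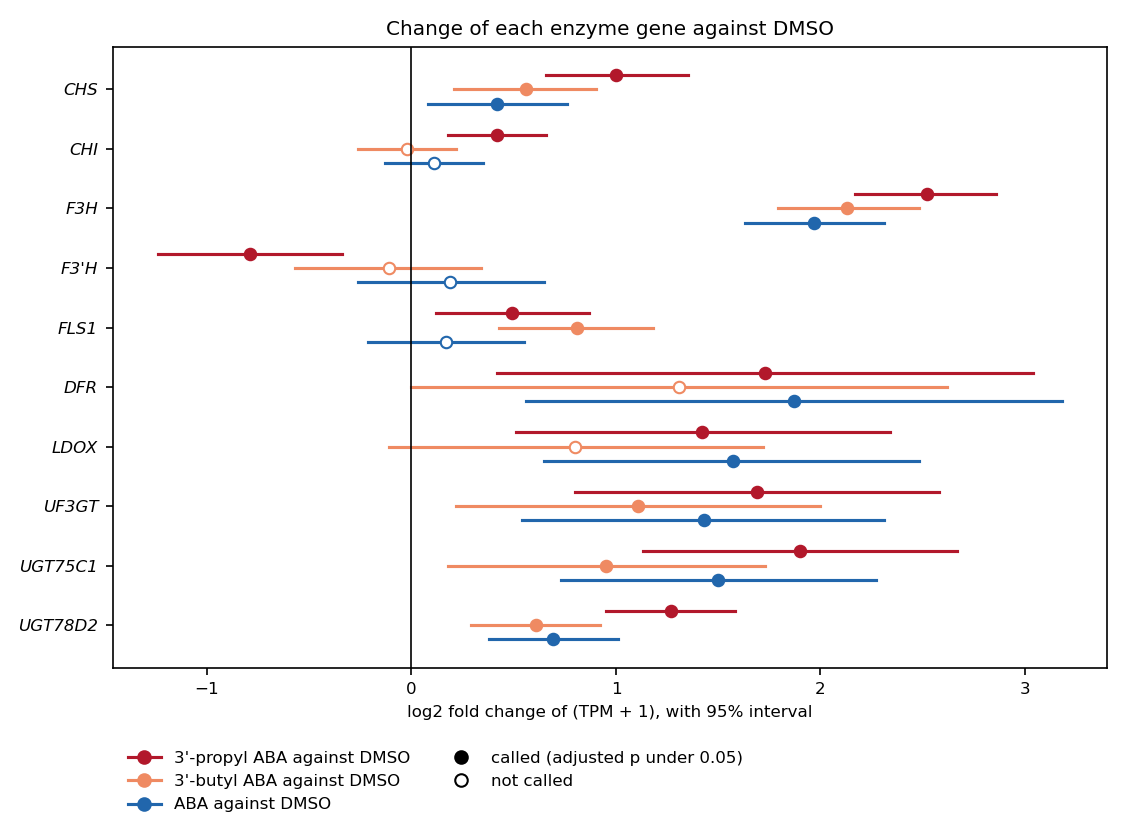
Log2 fold change of (TPM + 1) against DMSO (horizontal axis) for each of the 10 genes, with 3'-propyl ABA, 3'-butyl ABA and ABA from top to bottom in each row; points are limma estimates, lines their 95% intervals, and filled points were called at an adjusted p under 0.05. On this scale F3H is farthest to the right with each compound, F3'H with 3'-propyl ABA is the filled point left of 0, and the intervals of DFR are the widest.

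The order of the genes by mean level was firmer at the top than at the bottom. In DMSO the libraries of CHS did not overlap those of CHI, the next, nor those of CHI the next below, UGT78D2. The 4 late genes LDOX, DFR, UGT75C1 and UF3GT were last in DMSO, and each of them overlapped its neighbour in the order. With ABA, every neighbouring pair from CHI (rank 3) down to UF3GT (rank 10) overlapped. With 3'-propyl ABA, neighbours overlapped between UGT78D2 and CHI, between LDOX, DFR and UGT75C1, and between UF3GT and F3'H. With 3'-butyl ABA they overlapped between FLS1, CHI and UGT78D2, between DFR, LDOX and F3'H, and between UGT75C1 and UF3GT. TPM values are per length, so levels of different genes can be set side by side.

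The 2 derivatives were then set against ABA and against each other at the same dose and time, which makes 3 pairs of compounds. Adjustment was over all genes within a pair and not across the pairs. Against ABA, 3'-propyl ABA gave higher CHS, UGT78D2, F3H and CHI and lower F3'H, with 15.5% of all genes called higher and 26.4% lower (41.8% in all). Taken in both directions, the called members are near that share. The log2 fold changes were 0.58 ± 0.16 for CHS (adjusted p = 0.011), 0.58 ± 0.14 for UGT78D2 (adjusted p = 0.0072), 0.55 ± 0.16 for F3H (adjusted p = 0.015), 0.31 ± 0.11 for CHI (adjusted p = 0.040) and -0.98 ± 0.21 for F3'H (adjusted p = 0.0025). The libraries of CHS, UGT78D2 and F3H were all higher (19.5% of all genes) and those of F3'H all lower (31.9%), and those of CHI overlapped, since CHI in 3'-propyl ABA replicate 1 was below ABA replicate 2. None of the 4 late genes was called: the difference was -0.14 (interval -1.45 to 1.16) for DFR, -0.15 (-1.06 to 0.77) for LDOX, 0.26 (-0.62 to 1.15) for UF3GT and 0.40 (-0.37 to 1.17) for UGT75C1. These intervals are wide and hold changes in either direction. FLS1 was not called either (0.32, -0.05 to 0.70), though it was without ABA replicate 1 (0.48, adjusted p = 0.044). Without ABA replicate 3 the called genes numbered 3, as the calls of CHI (0.27, adjusted p = 0.11) and F3H (0.43, adjusted p = 0.059) were lost. F3H was also not called without 3'-propyl ABA replicate 1 (0.48, adjusted p = 0.056). CHI was not called without ABA replicate 1, 3'-propyl ABA replicate 2 or 3, or 3'-butyl ABA replicate 2 or 3 (adjusted p 0.051 to 0.15).

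Between 3'-butyl ABA and ABA none of the 10 genes was called by limma, and 1, FLS1, had an unadjusted p under 0.05. In this comparison 0.819% of all genes were called higher and 0.783% lower (1.60% in all) after adjustment. The share of all genes at an unadjusted p under 0.05 was not counted. FLS1 was higher in every 3'-butyl ABA library than in every ABA library (0.64 ± 0.17, unadjusted p = 0.0032, adjusted p = 0.090), as 13.6% of all genes were, and it was called without ABA replicate 1 (0.80, adjusted p = 0.037). The intervals of the other genes were -0.21 to 0.48 for CHS, -0.38 to 0.10 for CHI, -0.18 to 0.51 for F3H, -0.76 to 0.14 for F3'H and -0.40 to 0.23 for UGT78D2. For the late genes they were -1.87 to 0.75 for DFR, -1.68 to 0.15 for LDOX, -1.20 to 0.57 for UF3GT and -1.32 to 0.23 for UGT75C1. These bounds are what 3 libraries each allow, and the late genes have the widest.

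Against 3'-propyl ABA, the longer chain of 3'-butyl ABA went with lower CHS, CHI, UGT75C1 and UGT78D2 and with higher F3'H, where 17.6% of all genes were called lower and 31.2% higher (48.8% in all). The log2 fold changes were -0.45 ± 0.16 for CHS (adjusted p = 0.034), -0.45 ± 0.11 for CHI (adjusted p = 0.0056), -0.94 ± 0.35 for UGT75C1 (adjusted p = 0.044), -0.66 ± 0.14 for UGT78D2 (adjusted p = 0.0027) and 0.67 ± 0.21 for F3'H (adjusted p = 0.018). All 5 had libraries that did not overlap. Libraries all lower, as those of 22.1% of all genes were, were also seen for F3H, so 5 members were lower and 1, F3'H, higher in this sense (39.8% of all genes were higher). F3H was not called (-0.39, interval -0.73 to -0.04, adjusted p = 0.060). It was called without DMSO replicate 1, ABA replicate 3 or 3'-butyl ABA replicate 1 (adjusted p 0.029 to 0.046). The intervals of those not called were -1.73 to 0.89 for DFR, -1.53 to 0.30 for LDOX, -1.47 to 0.31 for UF3GT and -0.06 to 0.69 for FLS1.

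The calls of this pair depended on single libraries and on the scaling. Without 3'-propyl ABA replicate 2 or 3, or 3'-butyl ABA replicate 2 or 3, the calls of CHS (adjusted p 0.070 to 0.13) and UGT75C1 (log2 fold change -0.88 to -0.84, adjusted p 0.11 to 0.13) were lost and 3 genes were called. UGT75C1 was also lost without DMSO replicate 1, 2 or 3 or ABA replicate 1, and F3'H without 3'-butyl ABA replicate 1 (0.57, adjusted p = 0.070). With median-of-ratios scaling F3'H was not called (0.56, adjusted p = 0.053) and F3H was called lower (-0.52, adjusted p = 0.010). That scaling moved the median of all genes for this pair to 0.01, against 0.13 in TPM, and the calls over all genes to 4193 higher and 4829 lower, against 6100 higher and 3431 lower in TPM. For 3'-propyl ABA against ABA it gave 4159 higher and 3491 lower, against 3021 and 5148 in TPM, and the same 4 higher and 1 lower among the 10 genes.

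**Figure D3:**
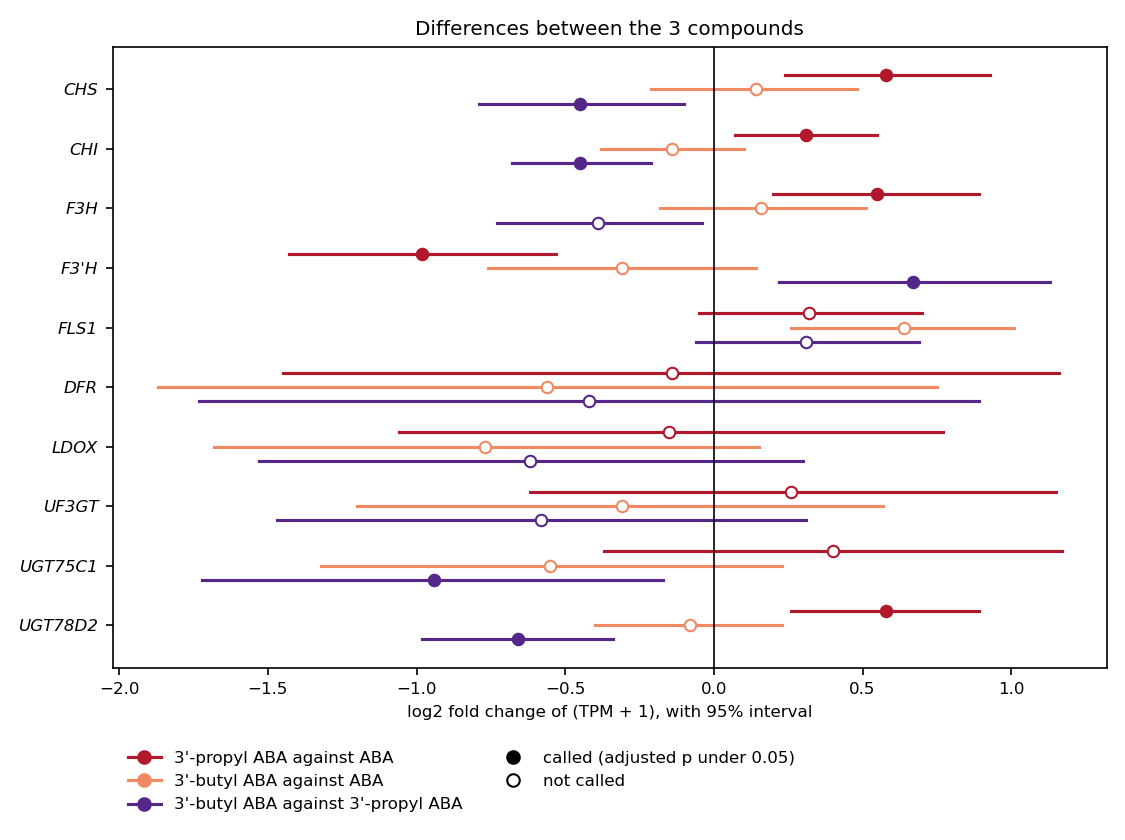
Log2 fold change of (TPM + 1) between compounds (horizontal axis) for each of the 10 genes, with 3'-propyl ABA against ABA, 3'-butyl ABA against ABA and 3'-butyl ABA against 3'-propyl ABA from top to bottom in each row; points are limma estimates, lines their 95% intervals, and filled points were called at an adjusted p under 0.05. No point of 3'-butyl ABA against ABA is filled, and the filled points of the other pairs lie on opposite sides of 0 for CHS, CHI, F3'H and UGT78D2, since both pairs use the 3'-propyl ABA libraries.

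The balance between the anthocyanin and flavonol branches was described by the log2 ratio of DFR to FLS1 in each library, computed on TPM + 1. It was -1.37, -0.69 and -0.18 with 3'-propyl ABA, -0.64, -2.13 and -1.66 with 3'-butyl ABA, -0.42, 0.62 and -1.05 with ABA, and -2.95, -1.67 and -1.33 in DMSO. The mean was -0.75 ± 0.60 with 3'-propyl ABA, -1.48 ± 0.76 with 3'-butyl ABA, -0.28 ± 0.84 with ABA and -1.98 ± 0.86 in DMSO (SD, n = 3 each). DFR exceeded FLS1 in 1 library, ABA replicate 2. The ABA libraries were all above the DMSO libraries, those of 3'-propyl ABA overlapped DMSO by a narrow margin, and those of 3'-butyl ABA lay among them apart from replicate 1.

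The mean log2 level of the 4 late genes relative to the 4 early genes CHS, CHI, F3H and F3'H was -1.86 ± 0.34 with 3'-propyl ABA, -2.35 ± 0.33 with 3'-butyl ABA, -1.84 ± 0.70 with ABA and -2.76 ± 0.57 in DMSO. The 3'-propyl ABA libraries (-2.19 to -1.51) lay above the DMSO libraries (-3.40 to -2.31), by a narrow margin. F3'H, counted here as early, fell with 3'-propyl ABA (-0.79 ± 0.21), and its fall raises this ratio. The ratio without F3'H was not computed, so whether the libraries separate over CHS, CHI and F3H alone was not tested. The 3'-butyl ABA (-2.57 to -1.97) and ABA (-2.61 to -1.23) libraries overlapped DMSO. The ratio of CHS to UGT78D2 was steadier, at 1.91 ± 0.07 with 3'-propyl ABA, 2.12 ± 0.24 with 3'-butyl ABA, 1.90 ± 0.14 with ABA and 2.17 ± 0.13 in DMSO. The 3'-propyl ABA (1.85 to 1.98) and ABA (1.75 to 2.01) libraries were below those of DMSO (2.03 to 2.28), whereas the 3'-butyl ABA libraries (1.84 to 2.31) overlapped them.

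**Figure D4:**
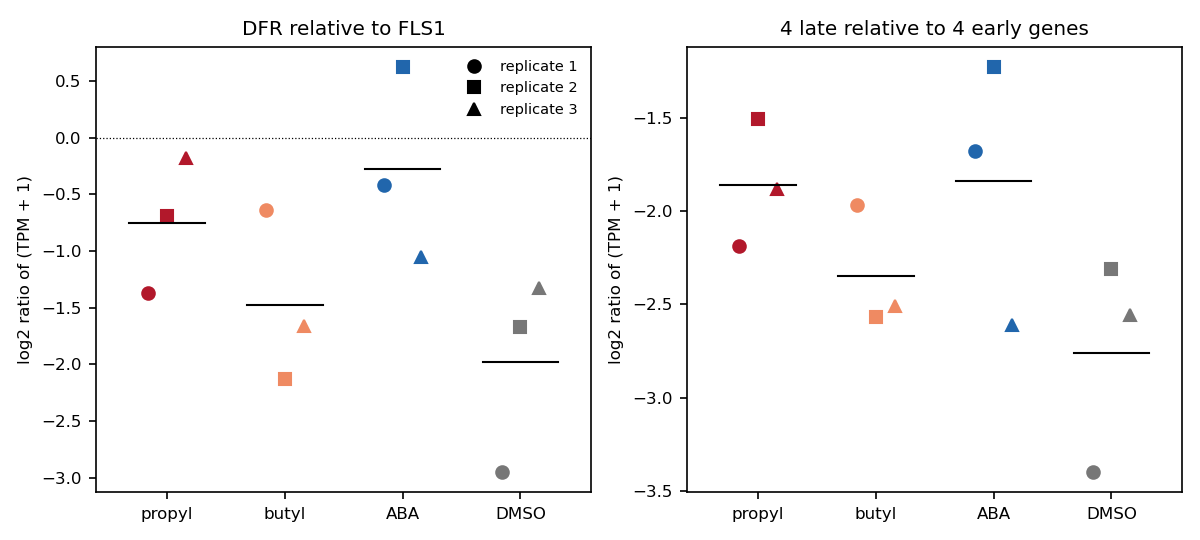
Log2 ratio of (TPM + 1) of DFR to FLS1 (left) and mean log2 level of the 4 late genes minus that of the 4 early genes (right) in the 12 libraries, by treatment from left to right 3'-propyl ABA, 3'-butyl ABA, ABA and DMSO; symbols are replicates 1 to 3 and bars are means. The left panel has 1 library above 0, ABA replicate 2, and both panels have DMSO replicate 1 lowest.

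Within a treatment, the 4 late genes were often highest and lowest in the same libraries. DMSO replicate 1 was lowest and DMSO replicate 2 highest for all 4 late genes. ABA replicate 3 was lowest and ABA replicate 2 highest for all 4. With 3'-propyl ABA, replicate 1 was lowest for all 4. With 3'-butyl ABA, replicate 1 was highest for these 4 and for the other 6 members as well. The highest library exceeded the lowest by 4.18 times for DFR, 2.69 times for LDOX, 3.34 times for UF3GT and 3.53 times for UGT75C1 with ABA. In DMSO these ratios were 3.38 for DFR, 2.77 for LDOX, 6.85 for UF3GT and 1.62 for UGT75C1. For CHS they were 1.48 with ABA and 1.11 in DMSO.

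The root marker sum was highest of the 12 libraries in DMSO replicate 1 (275 TPM), where the late genes were lowest. It was lowest in ABA replicate 3 (64.1 TPM), where the late genes were lowest among the ABA libraries but above every DMSO library. Its part in these levels was not tested. Leaving out DMSO replicate 1, the genes called higher against DMSO were 8 with 3'-propyl ABA, 4 with 3'-butyl ABA and 5 with ABA. Leaving out ABA replicate 3, ABA raised 7. Leaving out ABA replicate 2, the highest for the late genes, ABA raised 4, since CHS (0.37, adjusted p = 0.13), DFR (1.43, adjusted p = 0.095) and UF3GT (1.14, adjusted p = 0.058) were no longer called.

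**Figure D5:**
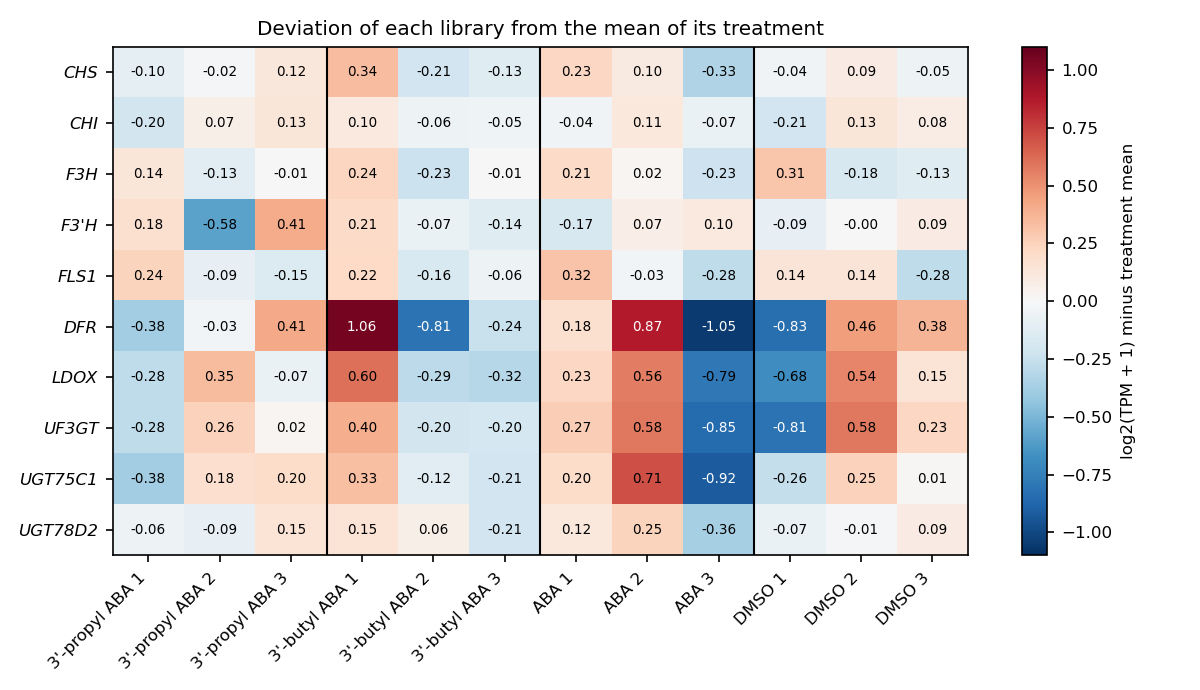
Difference of each library from the mean of its treatment on the log2(TPM + 1) scale (colour and printed value) for the 10 genes (rows) in the 12 libraries (columns), with 3'-propyl ABA, 3'-butyl ABA, ABA and DMSO from left to right. The rows DFR, LDOX, UF3GT and UGT75C1 share their direction in ABA replicates 2 and 3, DMSO replicates 1 and 2 and 3'-butyl ABA replicate 1, and DFR has the deepest colours.

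The other genes of the pathway moved in part with these 10. Of the 8 tested genes of phenylpropanoid entry, which supply coumaroyl-CoA, 5 rose and 3 fell with 3'-propyl ABA, 5 rose and 2 fell with 3'-butyl ABA, and 5 rose and 2 fell with ABA. Of all genes, 66.0% were called with 3'-propyl ABA, 50.6% with 3'-butyl ABA and 46.7% with ABA. The median log2 fold change of the 8 was 0.92 with 3'-propyl ABA, 0.98 with 3'-butyl ABA and 0.78 with ABA. PAL4, a phenylalanine ammonia-lyase gene, had the largest change with each compound: 3.48 ± 0.20 with 3'-propyl ABA, 3.03 ± 0.20 with 3'-butyl ABA and 2.94 ± 0.20 with ABA. Its level was 84.8 to 113 TPM with 3'-propyl ABA, 65.4 to 83.2 TPM with 3'-butyl ABA and 59.9 to 81.2 TPM with ABA, against 6.27 to 11.9 TPM in DMSO. 4CL1, a coumarate-CoA ligase gene, rose by 1.36 ± 0.08 with 3'-propyl ABA, 1.26 ± 0.08 with 3'-butyl ABA and 1.30 ± 0.08 with ABA. C4H, the cinnamate hydroxylase gene, rose by 1.40 ± 0.15 with 3'-propyl ABA, 0.97 ± 0.15 with 3'-butyl ABA and 0.78 ± 0.15 with ABA. For 4CL2, a further ligase gene, the rise was 0.97 ± 0.20 with 3'-propyl ABA, 1.22 ± 0.20 with 3'-butyl ABA and 1.03 ± 0.20 with ABA. The ligase gene 4CL3 went the other way, with -1.31 ± 0.14 with 3'-propyl ABA, -1.01 ± 0.14 with 3'-butyl ABA and -0.82 ± 0.14 with ABA. PAL3 also fell with each compound (-0.98 ± 0.15 with 3'-propyl ABA and -0.73 ± 0.15 with ABA). PAL2 fell with 3'-propyl ABA (-0.51 ± 0.08).

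Of 13 genes of other flavonoid branches and decoration, 12 were tested and UGT78D3 was too low. With 3'-propyl ABA 8 rose and 1 fell (median 0.51), with 3'-butyl ABA 7 rose and 2 fell (median 0.52), and with ABA 7 rose and 2 fell (median 0.38). The shares of all genes called were 66.0% with 3'-propyl ABA, 50.6% with 3'-butyl ABA and 46.7% with ABA. TT19, a glutathione transferase needed for anthocyanin in the vacuole, rose by 3.06 ± 0.31 with 3'-propyl ABA, 1.78 ± 0.31 with 3'-butyl ABA and 2.32 ± 0.31 with ABA. SAT, the sinapoyl transferase of anthocyanins, rose by 2.78 ± 0.12 with 3'-propyl ABA, 1.16 ± 0.12 with 3'-butyl ABA and 1.65 ± 0.12 with ABA. FLS3, a relative of FLS1, rose by 1.74 ± 0.28 with 3'-propyl ABA, 1.93 ± 0.28 with 3'-butyl ABA and 1.69 ± 0.28 with ABA. CHIL, the chalcone isomerase-like gene that aids CHS, rose by 2.15 ± 0.10 with 3'-propyl ABA, 1.03 ± 0.10 with 3'-butyl ABA and 1.07 ± 0.10 with ABA. The decoration genes that fell were 3AT2 and 3AT1. 3AT2 changed by -0.50 ± 0.12 with 3'-propyl ABA, -0.83 ± 0.12 with 3'-butyl ABA and -0.59 ± 0.12 with ABA. 3AT1 changed by -0.86 ± 0.11 with 3'-butyl ABA and -0.54 ± 0.11 with ABA, and was not called with 3'-propyl ABA (-0.10, interval -0.35 to 0.15).

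Proanthocyanidins are the seed coat tannins, and 2 of the 6 genes listed for them, TT9 and TT15, were high enough to be tested. TT9 rose by 0.84 ± 0.12 with 3'-propyl ABA and 0.32 ± 0.12 with 3'-butyl ABA, and was not called with ABA (0.27, interval 0.00 to 0.53). The TT9 call with 3'-butyl ABA was lost without DMSO replicate 2 or 3, ABA replicate 2, 3'-propyl ABA replicate 1, 2 or 3, or 3'-butyl ABA replicate 1 or 2 (adjusted p 0.053 to 0.15), and TT9 was called with ABA without DMSO replicate 1 (0.38, adjusted p = 0.018) or ABA replicate 3 (0.37, adjusted p = 0.029). TT15 rose by 0.81 ± 0.08 with 3'-propyl ABA and 0.47 ± 0.08 with ABA, and was not called with 3'-butyl ABA (0.20, 0.02 to 0.38) except without 3'-butyl ABA replicate 1 (0.27, adjusted p = 0.026). BAN and TT12, the reductase and transporter specific to that branch, did not exceed 0.117 and 0.164 TPM in any library. The calls of TT9 and TT15 therefore do not stand for the branch.

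Of 18 listed regulators 15 were tested: 6 rose and 3 fell with 3'-propyl ABA, 5 rose and 3 fell with 3'-butyl ABA, and 4 rose and 4 fell with ABA. These shares are near those over all genes (66.0% called with 3'-propyl ABA, 50.6% with 3'-butyl ABA and 46.7% with ABA), so the counts show nothing particular to regulators. Their median was 0.14 with 3'-propyl ABA, 0.18 with 3'-butyl ABA and 0.01 with ABA. PAP1, a MYB activator of the late genes, stood at 60.2, 102 and 64.3 TPM with 3'-propyl ABA, 6.81, 9.65 and 6.39 TPM with 3'-butyl ABA, 15.0, 22.6 and 15.7 TPM with ABA, and 1.70, 1.17 and 2.33 TPM in DMSO. Its libraries did not overlap between any 2 treatments. It rose by 4.79 ± 0.24 with 3'-propyl ABA, 1.66 ± 0.24 with 3'-butyl ABA and 2.78 ± 0.24 with ABA, and it was lower with 3'-butyl ABA than with ABA (-1.12 ± 0.24, adjusted p = 0.043). That last call was lost without ABA replicate 2 or 3, 3'-propyl ABA replicate 3, or 3'-butyl ABA replicate 1, 2 or 3 (log2 fold change -1.28 to -0.94, adjusted p 0.057 to 0.18). Its relative PAP2 rose by 3.76 ± 0.37 with 3'-propyl ABA, 1.23 ± 0.37 with 3'-butyl ABA and 1.52 ± 0.37 with ABA. The call with 3'-butyl ABA was lost without DMSO replicate 1 (0.94, adjusted p = 0.060) or 3'-butyl ABA replicate 1 (0.97, adjusted p = 0.071). MYBL2, a repressor of the late genes, rose by 2.11 ± 0.11 with 3'-propyl ABA, 1.13 ± 0.11 with 3'-butyl ABA and 0.63 ± 0.11 with ABA. LBD38, a nitrate-induced repressor of anthocyanin synthesis, fell, with log2 fold changes of -1.63 ± 0.09 with 3'-propyl ABA, -1.14 ± 0.09 with 3'-butyl ABA and -1.30 ± 0.09 with ABA. LBD37 and LBD39, also listed, moved less. With 3'-propyl ABA neither was called (-0.07 ± 0.07 for LBD37 and 0.14 ± 0.08 for LBD39). With ABA both were called lower (-0.21 ± 0.07 for LBD37 and -0.39 ± 0.08 for LBD39). MYB12, an activator of CHS and FLS1, stood at 4.59, 3.16 and 3.43 TPM with 3'-propyl ABA, 10.6, 5.97 and 7.24 TPM with 3'-butyl ABA, 5.84, 2.74 and 1.41 TPM with ABA, and 4.26, 1.56 and 0.958 TPM in DMSO. The 3'-butyl ABA libraries were above all others of the study. MYB12 rose with 3'-butyl ABA (1.55 ± 0.41, adjusted p = 0.0080) and was not called with 3'-propyl ABA (0.65, interval -0.24 to 1.55) or ABA (0.41, -0.49 to 1.30). It was not called between 3'-butyl ABA and ABA (1.14, 0.25 to 2.04, adjusted p = 0.18) or between 3'-butyl ABA and 3'-propyl ABA (0.90, 0.00 to 1.79, adjusted p = 0.090). Without DMSO replicate 1 it was called with 3'-propyl ABA against DMSO (1.07, adjusted p = 0.026) and for 3'-butyl ABA against 3'-propyl ABA (0.90, adjusted p = 0.042). MYB111, a related activator named here after its values were seen, stood at 1.14, 1.09 and 0.540 TPM with 3'-propyl ABA, 1.23, 1.45 and 0.462 TPM with 3'-butyl ABA, 1.50, 1.38 and 1.37 TPM with ABA, and 3.17, 4.47 and 3.07 TPM in DMSO. Every treated library was below every DMSO library. MYB111 fell with each compound, with log2 fold changes of -1.25 ± 0.22 with 3'-propyl ABA (adjusted p = 0.00026), -1.18 ± 0.22 with 3'-butyl ABA (adjusted p = 0.00071) and -0.91 ± 0.22 with ABA (adjusted p = 0.0046). MYB11 was too low to be tested.

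Between compounds, 3'-propyl ABA had 1 of the 8 phenylpropanoid entry genes higher and 2 lower than ABA. It had 4 of the 12 decoration genes higher and 1 lower, TT9 and TT15 higher, and 6 regulators higher and 2 lower. Over all genes, 15.5% were called higher and 26.4% lower in this pair (41.8% in all). Taken in both directions, the called entry and decoration genes are near that share. 3'-butyl ABA had none of the 22 pathway genes beyond the 10 called against ABA by limma, with 5 at an unadjusted p under 0.05, and 1 regulator, PAP1, lower. Of all genes, 1.60% were called in this pair after adjustment. The share of all genes at an unadjusted p under 0.05 was not counted, so nothing is read from the 5. Against 3'-propyl ABA, 3'-butyl ABA had 2 phenylpropanoid entry genes higher and 1 lower, and 6 decoration genes lower and none higher. TT9 and TT15 were lower, and 3 regulators were higher and 6 lower. Over all genes, 31.2% were called higher and 17.6% lower in this pair (48.8% in all).

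The genes with values most like each of the 10 were sought for the 7 members whose treatment means span at least 1 on the log2(TPM + 1) scale. Likeness was the root-mean-square difference over the 12 libraries after each gene was centred, which is a description. LDOX and UF3GT were nearer to each other (0.21) than to any of the 19518 tested genes outside the 10. For DFR the nearest gene was LDOX (0.36) and for UGT75C1 it was UF3GT (0.25), again with no gene outside the 10 nearer. Outside the 10, 5MAT, the malonyl transferase of anthocyanins, was nearest to LDOX (0.29), UF3GT (0.33) and DFR (0.45), with SYTD next for UF3GT (0.33), AT3G14395 for LDOX (0.37) and AT4G18425 for DFR (0.46). Nearest to UGT75C1 were AT4G18425 (0.29) and AT5G24820 (0.31).

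CHS, F3H and UGT78D2 had many genes nearer than another member. CHS and UGT78D2 were 0.18 apart, with 81 genes outside the 10 nearer to CHS, led by PIRL9 (0.10) and PP2CG1 (0.11), and 116 nearer to UGT78D2, led by DELTA-OAT (0.10) and SNF7.1 (0.10). F3H was 0.58 from its nearest member, UGT75C1, with 1067 genes nearer. The nearest to F3H were AT3G14067 (0.12) and AT3G14595 (0.13). AT3G14067 averaged 239 TPM with 3'-propyl ABA, 168 TPM with 3'-butyl ABA, 152 TPM with ABA and 38.4 TPM in DMSO.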

How the data were processed

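Poly(A) RNA of 12 seedling libraries was made into strand-specific paired-end libraries and read on an Illumina HiSeq, per the labels' protocols. The deposited values are TPM per gene made by the authors, 1 column per library. The submitters' processing notes name bcl2fastq and TAIR10; which aligner, counter and annotation were used is not given in the sources used here. Depth was estimated from the steps of low TPM values with TAIR10.1 lengths: 99.3 to 99.9% of the low genes of a library lay within 0.05 of a whole read. Of 27655 gene IDs 27445 are in TAIR10.1.

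TPM were set to log2(TPM + 1), which understates the change of low genes. The 19528 genes averaging 1 TPM or more were fitted with limma 3.58.1 in R 4.3.3 (1 mean per treatment over all 12 libraries, eBayes with trend and robust), with two-sided p-values adjusted over these genes (Benjamini-Hochberg) and a threshold of 0.05. Each fold change is a difference of log2 means. All 10 members are named, and, of each other list, up to 3 called genes with the largest change per comparison with DMSO. 4CL3, PAL2, PAL3, 3AT1, 3AT2, LBD37, LBD39 and MYB111 are named beyond this rule, after their values were seen. The members, lists and rules were chosen with earlier results of these data known. Alternatives were median-of-ratios scaling, quantile normalization, a pseudocount of 0.1, no filter, only the 6 libraries compared, a replicate block, and leaving out each library. How reads shared by close copies such as 3AT1 and 3AT2, UGT78D2 and UGT78D3, or PAP1 and PAP2 were assigned is not given, and was not examined.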

Additional observations from a re-analysis of the deposited data

How the results depend on the processing

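Of 360 gene values under alternatives that kept all libraries, 335 kept their side of the threshold, 18 lost and 7 gained a call, and 0 reversed. Of 720 without 1 library these were 661, 53, 6 and 0. Direction was compared only where either fit called the gene, so values not called in both may differ in sign. Called members moved by over 1.5 times with no filter to 3 for 3'-propyl ABA against ABA and 2 for 3'-butyl ABA against 3'-propyl ABA (each 5 in the analysis reported), and with quantile normalization to 3 for the last pair; the cause was not tested. The deviations of same-numbered libraries correlated at 0.115 to 0.329 for number 1, -0.168 to 0.27 for number 2 and -0.0966 to 0.0619 for number 3. The libraries numbered 1 thus deviated together, but not every pair exceeded 0.1, and the numbers were not taken as pairs. With a replicate block, 3'-butyl ABA against ABA had 1 called member, FLS1, 1 other pathway gene and 755 of all genes, against 0, 0 and 313; with no filter it had 49. With the block FLS1 was also called for 3'-propyl ABA against ABA (0.32, adjusted p = 0.027), and F3H (-0.39, adjusted p = 0.0055) and FLS1 (0.31, adjusted p = 0.027) for 3'-butyl ABA against 3'-propyl ABA. Without 1 library, called members ranged over 9 to 10 for 3'-propyl ABA, 4 to 6 for 3'-butyl ABA and 4 to 7 for ABA against DMSO, 3 to 5 for 3'-propyl ABA against ABA, 0 to 1 for 3'-butyl ABA against ABA and 3 to 6 for 3'-butyl ABA against 3'-propyl ABA. Other pathway genes called ranged over 19 to 20 for 3'-propyl ABA, 14 to 17 for 3'-butyl ABA and 17 to 18 for ABA against DMSO, 7 to 12 for 3'-propyl ABA against ABA, 0 to 1 for 3'-butyl ABA against ABA and 9 to 13 for 3'-butyl ABA against 3'-propyl ABA. All genes called for 3'-butyl ABA against ABA ranged over 9 (without 3'-butyl ABA replicate 1) to 585 (without DMSO replicate 1). UF3GT and UGT75C1 with 3'-butyl ABA against DMSO were not called with quantile normalization (adjusted p 0.062 and 0.055) or no filter (0.094 and 0.097). UF3GT in DMSO replicate 1 rests on an estimated 4 reads.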
